A study of Mus musculus with 9 samples.

Results

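The 35 genes described here encode aminoacyl-tRNA synthetases, 19 of the cytosol and 16 of mitochondria. They were taken by gene name from 2 deposited tables that list 19305 genes between them, and all 35 stood in both tables. Genes whose names end in 2 were counted as mitochondrial and described apart from the others. Values came from LLC1 cells, a mouse Lewis lung carcinoma line, kept for 24 h in direct contact with CD4+ T cells of the Th0, Th9 or Th17 subset, with 1 T cell per LLC1 cell. After a sort that took out CD4+ cells, total RNA from the rest was sequenced, with 3 libraries in each group. The title concerns epithelial-mesenchymal transition of lung cancer cells in contact with Th9 or Th17 cells. The T cells had been turned into each subset artificially, LLC1 is a single line, and no label tells if replicate libraries came from separate cultures. The p-values below therefore measure the spread between these libraries, which may be technical.

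Each aminoacyl-tRNA synthetase joins 1 amino acid to its tRNAs, using ATP, and so supplies the ribosome with charged tRNAs. Mammalian cells keep separate nuclear genes for most cytosolic and mitochondrial enzymes, although Gars and Kars serve both compartments, and several cytosolic enzymes sit in a multisynthetase complex held together by scaffold proteins. Uncharged tRNA activates the kinase GCN2, which phosphorylates eIF2 and favours translation of the transcription factor ATF4, and many cytosolic synthetase genes are known ATF4 targets.

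Promoters of 26 of the 35 genes were matched by symbol in RefSeq (GRCm38.p6), each as 300 bases with 250 before and 50 from the annotated start. This start belongs to the promoter entry and is not always the start of the gene. No entry was matched for Cars, Hars, Lars, Nars, Rars, Vars, Wars, Hars2 and Pars2. The motif TGATGNAA, known as the C/EBP-ATF response element that ATF4 dimers bind, was sought on both strands. It was found in 5 of 8 cytosolic promoters whose gene was called higher with Th9 cells, in 0 of 4 cytosolic promoters of genes not called, and in 0 of 14 mitochondrial promoters. Of all 32851 promoters of the same length 3.97% held it, as did 2.24% of those of genes tested in Th9 against Th0 and 4.04% of those of genes called higher. The 5 promoters are shown because they carry this motif, and both the motif and the promoters were chosen after the matches had been seen. The printed windows run from 130 bases before to 20 bases from the start, at chr8:111033712-111033861 (Aars, plus strand), chr6:55037871-55038020 (Gars, plus), chr13:49682000-49682149 (Iars, plus), chr15:11399639-11399788 (Tars, minus) and chr4:129189773-129189922 (Yars, plus). They read 5′ to 3′ along the gene, with the motif on either strand in capitals.
Aars: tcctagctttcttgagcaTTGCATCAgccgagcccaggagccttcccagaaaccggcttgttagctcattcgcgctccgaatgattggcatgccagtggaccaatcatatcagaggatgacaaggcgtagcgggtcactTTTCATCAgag
Gars: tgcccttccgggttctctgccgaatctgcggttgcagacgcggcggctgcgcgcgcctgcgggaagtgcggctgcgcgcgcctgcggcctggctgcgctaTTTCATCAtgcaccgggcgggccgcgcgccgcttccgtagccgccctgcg
Iars: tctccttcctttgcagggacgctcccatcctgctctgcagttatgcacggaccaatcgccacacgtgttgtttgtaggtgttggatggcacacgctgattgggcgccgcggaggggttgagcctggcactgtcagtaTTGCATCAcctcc
Tars: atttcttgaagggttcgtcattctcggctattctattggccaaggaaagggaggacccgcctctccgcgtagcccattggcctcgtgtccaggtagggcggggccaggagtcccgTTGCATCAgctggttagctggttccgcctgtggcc
Yars: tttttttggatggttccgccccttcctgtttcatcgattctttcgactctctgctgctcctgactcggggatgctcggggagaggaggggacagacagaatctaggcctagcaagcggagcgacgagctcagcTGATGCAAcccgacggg

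The start of the promoter entry lay 6064 bases after the RefSeq gene start in Aars and 169 bases after it in Yars. In Gars, Iars and Tars the offset was 0. Counting from the start of the entry with no position 0, the first base of the match lay at -112 and 10 in Aars, at -30 in Gars, at 8 in Iars, at -15 in Tars and at 4 in Yars. The match was on the strand opposite to the gene except in Yars. In all, 12 patterns were searched. Those related to this motif were TGATGNAAN (3.95% of all promoters), TGATGCAA (0.895%), TGANGCAA (3.69%) and TGACGNAA (1.59%), with TTGCATCA (0.895%) and TTNCATCA (3.97%), which are the reverse complements of TGATGCAA and TGATGNAA and give the same matches. The E-box CACGTG, which MYC can bind, was in 5 of the 26 promoters, those of Aars, Farsb, Iars, Tars and Ears2. By the same split as above, these were 4 of 8 cytosolic promoters called higher, 0 of 4 not called and 1 of 14 mitochondrial. CACGTG was in 7.15% of all promoters, in 9.82% of those of genes tested in Th9 against Th0 and in 9.8% of those of genes called higher. CCAAT was in 12 of the 26 promoters (37.4% of all) and CCAATNA in 7 (15.5%), while TGACGTCA (1.79%) and the NRF1 palindrome (0.971%) were in 0. A match is a description of the letters in these windows.

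Depth was about 12718971 to 17504907 assigned reads per library. The values are the authors' normalized counts, with no unit of length, and all 35 genes passed the minimum mean of 10. Th0 replicate 1 stood apart, with 31.1% of its reads on mt-Rnr1, mt-Rnr2 and Gm26917 against 14.9% to 21.8% in the other libraries. In it 18 of 19 cytosolic synthetase genes were at their lowest among the Th0 libraries, at a median 0.814 of the mean of the other Th0 libraries, and 9 of 16 mitochondrial genes were at their highest. LLC1 markers were present, with Vim at 72117 and Krt8 at 2147 in Th0, whereas Cdh1 and Epcam were not in the tables. T cell markers differed between the groups. The summed value of 19 such genes was 208 to 313 in Th0 and 1622 to 2262 in Th9, with Cd6 at 0 in all Th0 libraries. In the table with Th17, which lists 13 of them, the sum was 211 to 306 in Th0 and 176 to 218 in Th17, with Cd3g at 0 in Th17 replicates 1 and 3. The share of T cells in the RNA, and its part in the results below, was not tested. In such bulk samples, fewer cells of a type and less RNA per cell cannot be told apart.

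Most cytosolic synthetase genes were higher with Th9 cells than with Th0 cells. With a Benjamini-Hochberg adjusted p under 0.05 in limma as the call, 12 of 19 rose and 0 fell, where 13.4% of all 14475 genes tested rose and 11.9% fell (25.2% called in all). The difference was above 0 in 17 of the 19, against 48.6% of all genes. The median log2 fold change of the 19 was 0.47, against -0.01 over all genes. At an unadjusted p under 0.05, 13 were higher and 0 lower. The T cell markers named above were high in the same 3 Th9 libraries.

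Iars, which charges isoleucine tRNA, had the largest rise of the 35. Its gene (ENSMUSG00000037851) lies on chromosome 13 at 49682100 to 49734267 (GRCm38, plus strand). It was at 2122, 2422 and 2092 in the Th0 libraries and at 4076, 4025 and 3947 in the Th9 libraries. The groups lay far apart, and the Th9 libraries were closer to each other than the Th0 libraries. The mean went from 2212 ± 182 to 4016 ± 65.0 (SD, n = 3), a 1.82-fold rise on the log2(value + 1) scale (log2 0.86, SE 0.09, limma adjusted p = 2.4e-05).

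Rars, the arginine enzyme (ENSMUSG00000018848, chromosome 11, 35808381 to 35834506, minus strand), had 1807, 2111 and 1988 in Th0 and 3226, 3346 and 3140 in Th9. Sars, the serine enzyme (ENSMUSG00000068739, chromosome 3, 108424865 to 108445209, minus strand), had 1684, 2031 and 1917 in Th0 and 3123, 3052 and 2996 in Th9. In both genes every Th9 library was above every Th0 library. Rars rose 1.65-fold (log2 0.72, SE 0.09, limma adjusted p = 8.9e-05) and Sars 1.63-fold (log2 0.71, SE 0.09, limma adjusted p = 1.3e-04).

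Aars, the alanine enzyme (ENSMUSG00000031960, chromosome 8, 111033144 to 111057664, plus strand), had 2603, 2859 and 2969 in Th0 and 4677, 4521 and 4031 in Th9. Th9 replicate 3 was the lowest of its group and still above all Th0 libraries. Aars rose 1.57-fold (log2 0.65, SE 0.09, limma adjusted p = 3.1e-04). It holds the motif of the printed promoters at 2 places.

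The other genes that rose were Nars (asparagine, log2 0.57), Lars (leucine, 0.54), Cars (cysteine, 0.52), Tars (threonine, 0.51), Gars (glycine, 0.47), Eprs, a fused enzyme for glutamate and proline (0.39), Yars (tyrosine, 0.31) and Farsb, described below. Cars was at 1629, 1709 and 1665 in Th0 and at 2322, 2336 and 2535 in Th9, and its groups did not overlap. The calls of the smallest rises were lost under some alternatives. Eprs (limma adjusted p = 0.041) was not called when each library was scaled to an equal total (0.063), nor without Th0 replicate 3 (0.056) or any 1 Th9 library (0.121 to 0.14), with log2 differences of 0.36 to 0.50. Yars (0.036) lost its call without any 1 Th9 library (0.108 to 0.119), and Gars (0.013) without Th9 replicate 3 (0.069).

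The 7 cytosolic genes that were not called were Wars, Kars, Qars, Hars, Dars, Vars and Farsa, the tryptophan, lysine, glutamine, histidine, aspartate and valine enzymes and 1 subunit of the phenylalanine enzyme. Their log2 differences ran from 0.25 in Wars (limma adjusted p = 0.098) to -0.16 in Farsa (0.196). Wars and Qars did not overlap between the groups, with every Th9 library above every Th0 library. Wars, Kars and Qars were called higher when libraries were brought to the same total with mt-Rnr1, mt-Rnr2 and Gm26917 left out of it (limma adjusted p = 0.022, 0.028 and 0.027). Vars, which has a high level per length, was at 3917, 4092 and 4563 in Th0 and at 4090, 3965 and 4301 in Th9. Its groups overlapped throughout, and its log2 difference was -0.02 (0.09 with libraries brought to the same total, so its sign was not fixed). Counting all 19, the groups did not overlap in 14 genes that were higher and in Farsa, which was lower, against 21.4% and 19.2% of all genes.

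**Figure D1:**
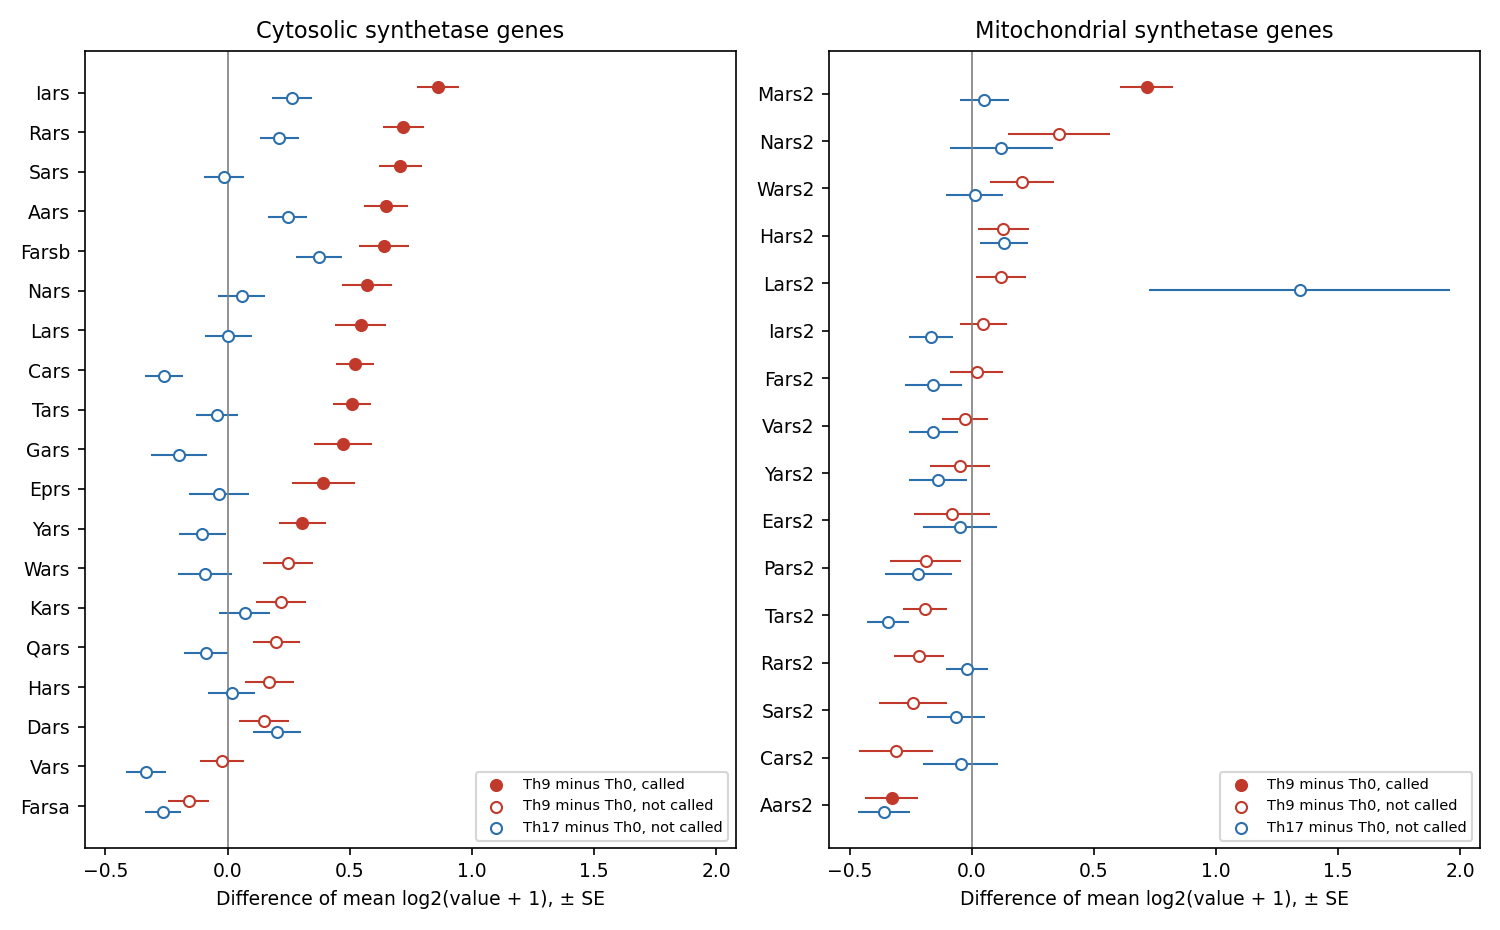
Difference of mean log2(value + 1) between Th9 or Th17 and Th0 (horizontal axis, bars are ± SE, 3 libraries per group) for each synthetase gene. Filled points passed the test: 12 cytosolic genes and Mars2 to the right and Aars2 to the left, all for Th9, while the Th17 points are all open.

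The phenylalanine enzyme is built of alpha subunits, encoded by Farsa, and beta subunits, encoded by Farsb, and only Farsb of these 2 genes passed the test in Th9. Farsb was at 352, 429 and 397 in Th0 and at 643, 640 and 554 in Th9. Farsa was at 798, 889 and 807 in Th0 and at 733, 711 and 788 in Th9. Farsb rose 1.56-fold (log2 0.64, SE 0.10, limma adjusted p = 7.9e-04), while Farsa did not pass the test (adjusted p = 0.196). The ratio of Farsb to Farsa within a library was 0.441 to 0.492 in Th0 and 0.703 to 0.9 in Th9. In the table with Th17 it was 0.441 to 0.493 in Th0 and 0.701 to 0.755 in Th17. Neither group overlapped Th0, and an exact two-sided permutation test gave p = 0.1 for each, the smallest that 3 libraries against 3 allow. The ratio was picked after its values were seen, and both comparisons use the same Th0 libraries.

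With Th17 cells, 0 of 19 cytosolic genes passed the test in limma, where 1.19% of all 14342 genes tested rose and 0.39% fell (1.58% called in all). The difference was above 0 in 9 of the 19, against 49.2% of all genes. The median log2 fold change of the 19 was -0.01 and the values ran from -0.33 (Vars) to 0.37 (Farsb). At an unadjusted p under 0.05, Aars, Farsb, Iars and Rars were higher and Cars, Farsa and Vars lower. Iars was at 2740, 2574 and 2837 in Th17 against 2183, 2475 and 2147 in Th0 of the same table (log2 0.26, SE 0.08, limma adjusted p = 0.134). Every Th17 library was above every Th0 library, though Th0 replicate 2 came close to the lowest of them. Vars was at 3376, 3432 and 3401 in Th17 and at 4028, 4181 and 4682 in Th0 (log2 -0.33, limma adjusted p = 0.072), so here the Th17 libraries were all lower. Groups did not overlap in 5 cytosolic genes that were higher and 3 that were lower, against 12.8% and 10.6% of all genes.

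The Th17 counts depended on Th0 replicate 1, the library that stood apart. Without it, limma called Aars, Farsb and Iars higher and Cars, Eprs, Farsa, Gars, Qars, Vars and Yars lower, with log2 differences from 0.30 (Farsb) to -0.38 (Vars). All genes called then numbered 2352 of 14209 tested (974 higher and 1378 lower), against 226 with all libraries. For Th9 the number of cytosolic genes called higher was 12 with and without that library.

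**Figure D2:**
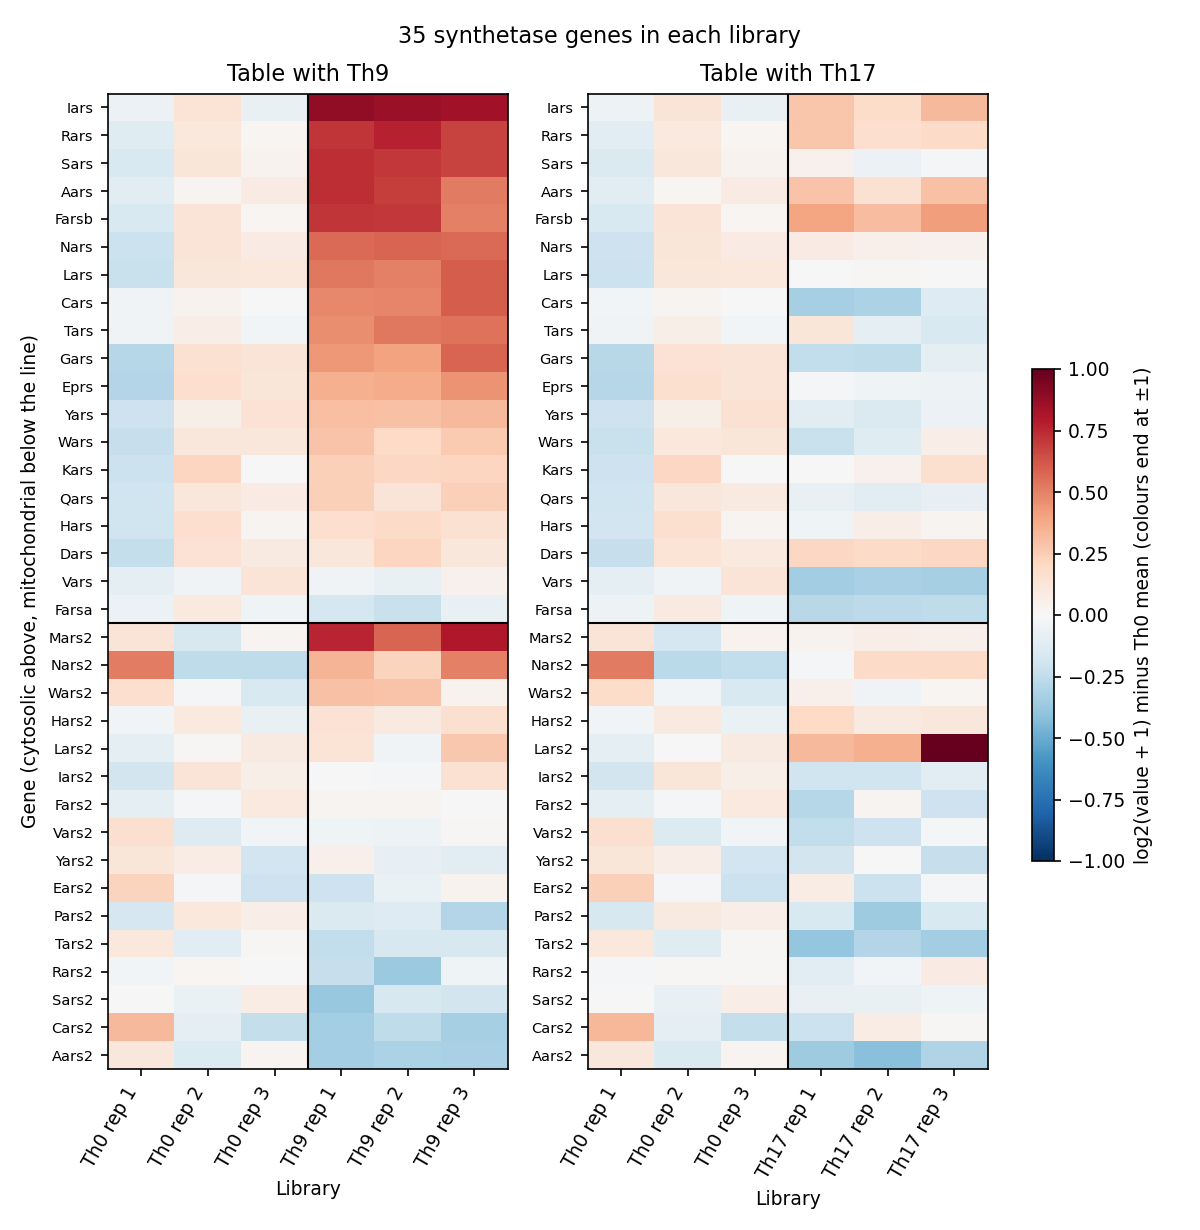
Each synthetase gene (rows) in each library (columns) as log2(value + 1) minus the Th0 mean, red above and blue below, with colours ending at ±1. Most cytosolic rows are red in all 3 Th9 columns, the cytosolic rows of Th0 replicate 1 are mostly pale blue, and Lars2 is dark red in Th17 replicate 3 alone.

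Th17 was set against Th9 in a joint table of the 9 libraries. There 15 of 19 cytosolic genes were called lower in Th17 and 0 higher, where 11% of all 14372 genes were called lower and 9.8% higher (20.8% called in all), with a median log2 difference of -0.42 against 0.01 over all genes. At an unadjusted p under 0.05, 15 were lower and 0 higher. The difference was above 0 in 1 of the 19, against 51.8% of all genes. Every Th17 library was below every Th9 library in 18 and above in 0, against 22.5% and 22.5% of all genes. Dars, Farsa, Hars and Kars were not called. The largest difference was in Cars, at 1397 ± 112 in Th17 and 2413 ± 122 in Th9 (log2 -0.79, SE 0.07, limma adjusted p = 1.8e-06). Sars (-0.73), Gars (-0.67) and Iars (-0.61) came next. Iars was lower with Th17 cells than with Th9 cells by a factor of 1.52. T cell markers were lower in Th17 as well, 10 of 12 tested, and their part in these differences was not tested.

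**Figure D3:**
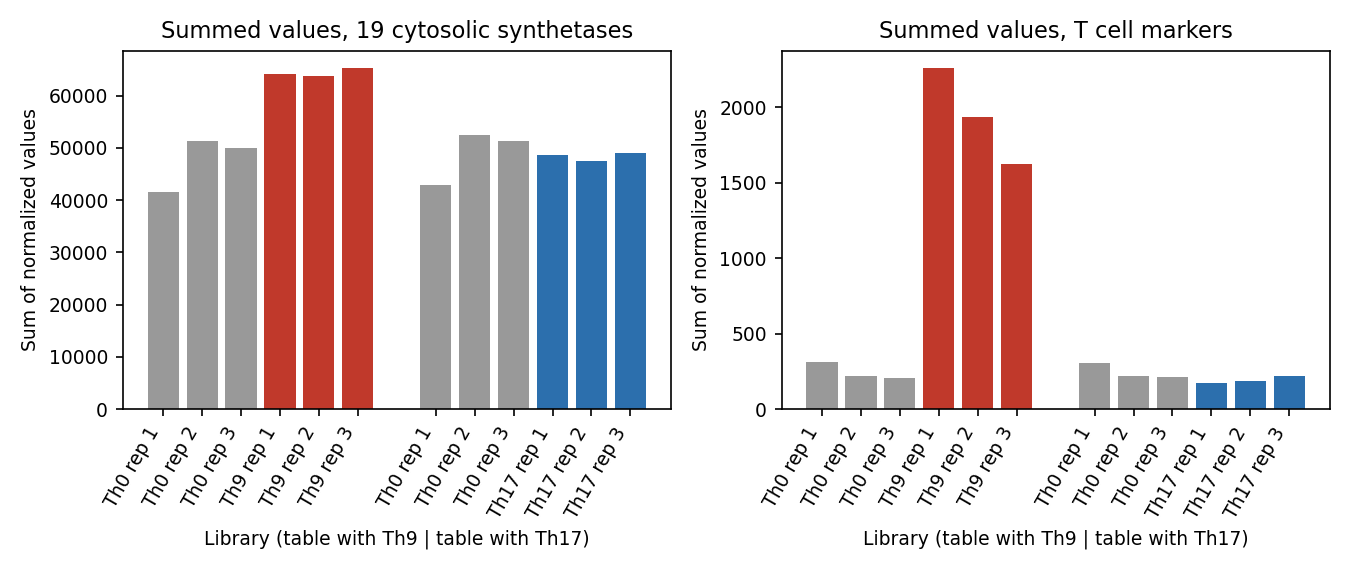
Summed normalized values per library of the 19 cytosolic synthetase genes (left) and of T cell markers (right, 19 genes in the table with Th9 and 13 in the table with Th17), 1 bar per library. The cytosolic sum is 41630 to 51340 in Th0 and 63843 to 65317 in Th9, and the T cell marker sum is also highest in Th9.

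The sums of the cytosolic genes also parted Th9 from Th0. The sum was 41630, 51340 and 50034 in Th0 and 64159, 63843 and 65317 in Th9. In the table with Th17 it was 42816, 52450 and 51344 in Th0 and 48721, 47462 and 48978 in Th17.

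Of the 16 mitochondrial synthetase genes, 1 rose in Th9, Mars2, and 1 fell, Aars2, where 13.4% of all genes rose and 11.9% fell. Their median log2 fold change was -0.04, and no test of a difference from the cytosolic genes was made. Mars2, the mitochondrial methionine enzyme (ENSMUSG00000046994, chromosome 1, 55237177 to 55248470, plus strand), was at 317, 260 and 296 in Th0 and at 492, 435 and 507 in Th9. The groups did not overlap, and Mars2 rose 1.64-fold (log2 0.72, SE 0.11, limma adjusted p = 4.7e-04). Aars2, the mitochondrial alanine enzyme, was at 275, 231 and 260 in Th0 and at 201, 204 and 203 in Th9. It fell by 0.33 on the log2 scale (SE 0.11, limma adjusted p = 0.045), a call that ended with no filter (0.052), under both alternative scalings (0.240 and 0.096) and without any 1 library other than Th0 replicate 2. Groups did not overlap in 1 mitochondrial gene that was higher and 5 that were lower, against the shares of all genes given above.

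In Th17 against Th0, 0 of 16 mitochondrial genes were called in limma, where 1.58% of all genes were (0 higher and 2 lower, Aars2 and Tars2, at an unadjusted p under 0.05). Without Th0 replicate 1, Iars2 and Tars2 were called lower, as were 1378 of all 14209 genes then tested. In Th17 against Th9, Mars2 was the 1 mitochondrial gene of 16 called, where 11% of all genes were called lower and 9.8% higher. It was lower in Th17 (log2 -0.67, limma adjusted p = 1.2e-04).

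For 12 amino acids both a cytosolic and a mitochondrial gene were among the members (Aars and Aars2, and so on). In Th9 against Th0 the cytosolic gene had the larger log2 difference in 12 of 12 pairs, with a median difference of 0.56. The gap was widest for alanine, at 0.65 for Aars and -0.33 for Aars2, and narrowest for valine, at -0.02 for Vars and -0.03 for Vars2. Among the genes not paired, Farsa (-0.16) was below Fars2 (0.02) in Th9 and Farsb (0.64) above it. Eprs (0.39) was above Ears2 (-0.08) and Pars2 (-0.19). In Th17 against Th0 the cytosolic gene had the larger value in 6 of 12 pairs, with a median of -0.01. These are counts of genes and not of replicates.

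Lars2, the mitochondrial leucine enzyme, had the widest spread between libraries of a group. It was at 417, 447 and 474 in Th0 and at 557, 571 and 4547 in Th17, so a single library carried most of the difference. The log2 fold change was 1.34 (SE 0.62, limma adjusted p = 0.279), and 0.34 (adjusted p = 0.283) without Th17 replicate 3. By a rule chosen after this value was seen, a value in that library of at least 50 and at least 4 times both other Th17 libraries, 4 genes stood out in it: Lars2 (7.96 times the higher of the others), Rn18s-rs5, Gm15564 and n-R5-8s1. Rn18s-rs5 and n-R5-8s1 are ribosomal RNA genes. Rn18s-rs5 was at 6452, 3799 and 36200 in Th17, and its part in the Lars2 value was not tested. In GENCODE M21 no other gene overlaps Lars2 (chromosome 9, 123366927 to 123462666).

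**Figure D4:**
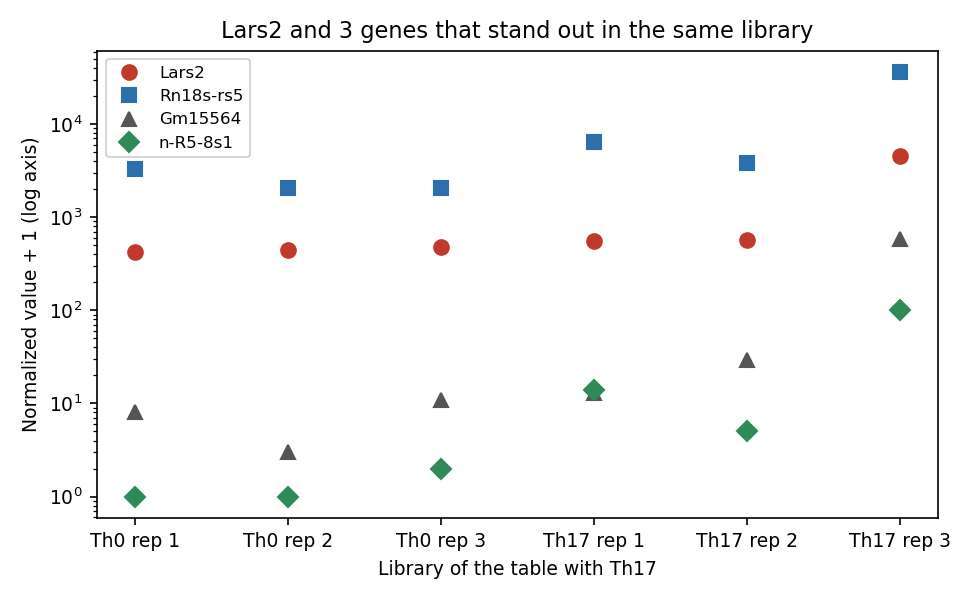
Normalized value + 1 on a log axis in the 6 libraries of the table with Th17, for Lars2 and the 3 genes that stood out with it. All 4 are highest in Th17 replicate 3, where Lars2 is at 4547 against 557 and 571 in the other Th17 libraries.

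Levels of different genes were compared per kb of the union of all annotated exons of a gene, from GENCODE M21. This length can exceed that of any single transcript, so ranks depend on the annotation. In Th0 the median over the cytosolic genes was 365 per kb and over the mitochondrial genes 38.4 per kb. Gars was highest at 1263 ± 204 per kb and Nars next at 1040 ± 128 per kb, with overlapping ranges. Yars was the lowest of the cytosolic genes at 144 ± 18 per kb, and Iars2 the highest of the mitochondrial ones at 174 ± 19.2 per kb. The range of Yars overlapped that of Farsb, and the range of Iars2 that of Rars2. Nars2 was lowest of all at 11.9 ± 3.98 per kb. Iars stood at rank 9 of 35 in Th0, at 420 ± 34.6 per kb, and at rank 5 in Th9, at 762 ± 12.3 per kb.

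By the enzymes' own properties, a grouping made after the values were seen, the Th9 calls were spread widely. Of 7 members of the multisynthetase complex 4 rose (Eprs, Iars, Lars, Rars), as did 8 of the 12 others, against 13.4% of all genes tested. Of the class I enzymes, whose catalytic fold differs from that of class II, 5 of 8 rose, and of class II 6 of 10. No test of a difference between these groups was made. Of the 3 scaffold genes of the complex, Eef1e1 rose in Th9 (log2 0.46, limma adjusted p = 0.014), while Aimp1 was at 0.07 (0.592) and Aimp2 at -0.13 (0.548).

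Genes of the amino acid response also rose with Th9 cells, where 13.4% of all 14475 genes tested rose and 11.9% fell. Of 17 tested regulators and ATF4 targets 16 rose and 0 fell, with a median log2 fold change of 0.92. Atf4 itself went from 4109 to 6832 (log2 0.74, limma adjusted p = 2.0e-04), Trib3, a feedback inhibitor, had 2.01, Chac1, which degrades glutathione, 2.67, and Ddit3, which encodes CHOP, 0.64. All 11 amino acid transporter genes rose (median 0.96), among them the cystine transporter Slc7a11 (2.86) and the leucine transporter Slc7a5 (0.96). Of 17 genes of amino acid and one-carbon synthesis 13 rose and 0 fell (median 0.83), among them Asns, asparagine synthetase (1.04), and Cth (1.48). At an unadjusted p under 0.05 none of these lists had a member that was lower. T cell markers were high in the same Th9 libraries, and their part in these counts was not tested.

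Other translation genes were counted against the 13.4% of all genes that rose and the 11.9% that fell. Of 28 cytosolic translation factors 6 rose and 1 fell (median 0.06), of 20 mitochondrial translation and tRNA modification genes 2 rose and 1 fell (median 0.00), and of 7 genes of tRNA proofreading, export and hydrolysis Xpot, a tRNA exporter, rose (log2 0.55). Eif2b3, a subunit of the exchange factor that eIF2 phosphorylation inhibits, had 0.50 and Eif5b, which joins ribosomal subunits, -0.43. Of the 4 eIF2 kinase genes tested, Eif2ak1 rose (0.34) and Eif2ak3 fell (-0.39). Eif2ak4, which encodes GCN2 (0.10, limma adjusted p = 0.398), and Eif2ak2 (-0.29, 0.108) were not called. The gene of the GCN2 partner was not among those tested. Of 17 MYC and ribosome biogenesis genes 3 rose and 1 fell (median 0.08). Myc went from 4630 to 12192 (log2 1.39, limma adjusted p = 6.8e-06).

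In Th17 against Th0 the same lists held few calls, where 1.19% of all genes rose and 0.39% fell. Of the ATF4 list Herpud1 was higher (log2 0.50) and Ppp1r15a lower (-0.53), of the transporters Slc7a5 was higher (0.32) and of amino acid synthesis Psat1 (0.81) and Aldh18a1 (0.38). All 11 transporters had a difference above 0 (median 0.25), against 49.2% of all genes. At an unadjusted p under 0.05 in limma, 7 transporters were higher and 0 lower. For the synthesis genes these counts were 5 and 0, and for the ATF4 list 2 and 2. Atf4 was at 4212 in Th0 and 4099 in Th17 (log2 -0.03, limma adjusted p = 0.883), and Myc had 0.55 (0.015). In Th17 against Th9 17 of 17 genes of the ATF4 list, 10 of 11 transporters and 13 of 17 synthesis genes were called lower. Of all genes 11% were called lower in Th17. These 3 comparisons share libraries, so their counts are not independent.

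**Figure D5:**
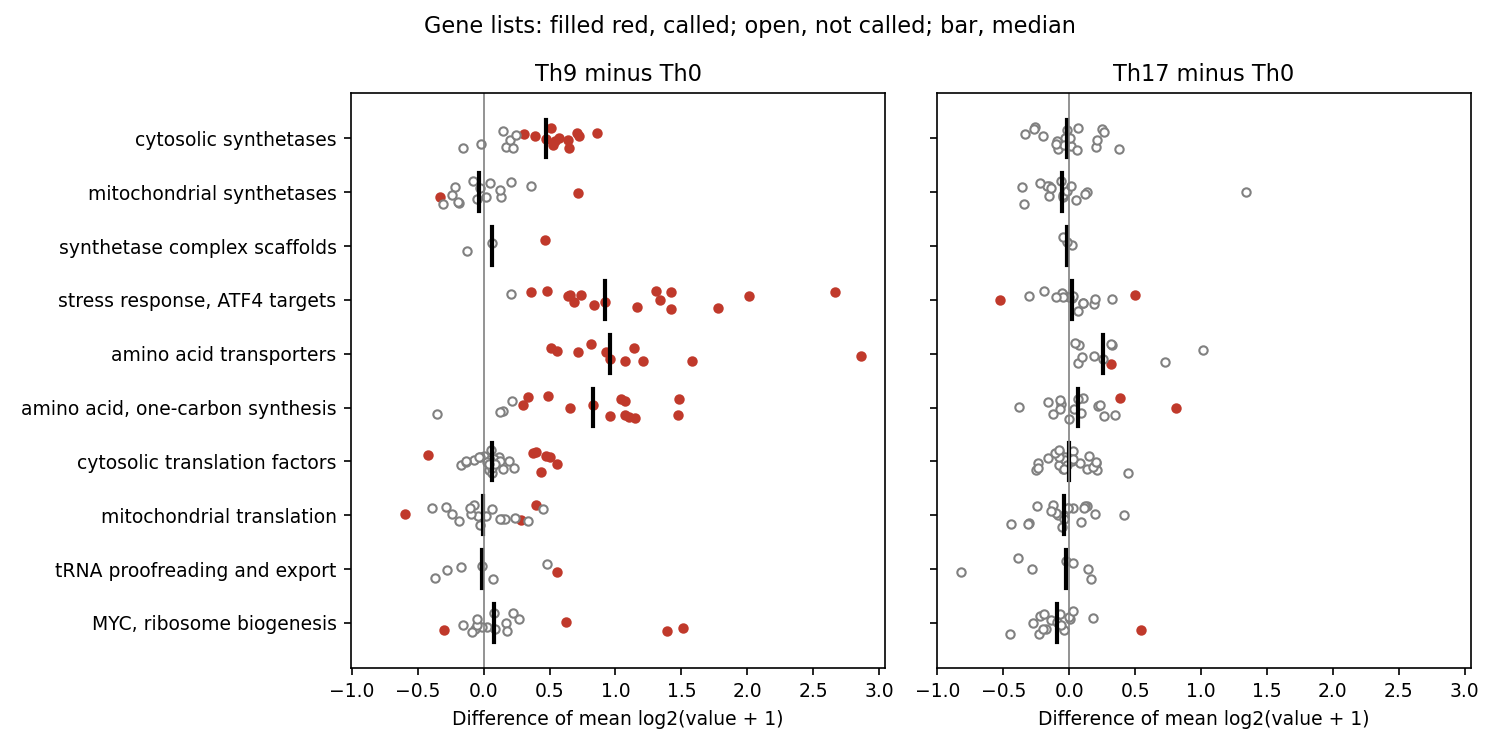
Difference of mean log2(value + 1) for every tested gene of 10 lists (1 point per gene, filled red where called, black bar the median), Th9 minus Th0 on the left and Th17 minus Th0 on the right. In Th9 the cytosolic synthetases (median 0.47) lie right of 0 with the ATF4, transporter and amino acid synthesis lists, and the mitochondrial synthetases are centred at -0.04.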

How the data were processed

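Total RNA of the cells left after CD4+ cells were sorted out of the LLC1 cocultures was sequenced in 9 libraries (3 groups of 3). Per the submitters' processing notes, STAR 2.4.0a, featureCounts 1.4.5-p1, Subread and DESeq2 1.62 were used with builds mm10 and GRCm38, with no role or order given. Whether counting used the strand is not given in the sources used here, so overlapping and antisense genes could share reads. The authors deposited scores in 2 tables normalized apart, namely gene counts scaled by a size factor for each library and rounded to whole numbers. This was checked on the Th0 libraries, which differed between the tables by 1 factor each (1.03, 1.02 and 1.03). Genes with few reads are not listed.

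Comparisons of Th9 and of Th17 with Th0 were made within 1 table, and Th17 with Th9 in a joint table of 9 libraries rescaled by medians of ratios. limma-trend (limma 3.58.1, R 4.3.3) was fitted on log2(value + 1) over all genes with a mean of at least 10, with group as the only term, and a Benjamini-Hochberg adjusted p under 0.05 was a call. Since the scores are not counts, no count model was used. The fit was tested on simulated data with the same setting of spread for every gene and no library that stood apart. Th0 replicate 1 did stand apart, so the simulation does not show how the fit performs on these libraries. Approximate reads are scores times the size factor found from the steps of the values. Alternatives were other pseudocounts, filters, scalings, array weights, a replicate block and each library left out.

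The members and lists were chosen with earlier results of these data known. All 35 members are named. Of the other lists, up to 4 called genes with the smallest adjusted p per comparison could be named, plus Atf4, Ddit3, Asns, Myc, Aimp1, Aimp2, Eef1e1, Cd3e, Cd3g and Ptprc. Other genes were chosen after their values were seen. Promoters are from RefSeq (GRCm38.p6).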

Additional observations from a re-analysis of the deposited data

Results flagged for a closer look

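The effects of Th9 and Th17 cells, each measured against Th0, differed in 16 synthetase genes by a test of the difference itself, Th17 against Th9 in limma over the joint table (Benjamini-Hochberg adjusted p under 0.05). All 16 were lower in Th17, 15 of 19 cytosolic genes and 1 of 16 mitochondrial genes. Of all 14372 genes tested, 11% were called lower and 9.8% higher. The log2 differences (Th17 minus Th9) of the 16 follow. These differences were -0.79 in Cars, -0.73 in Sars, -0.67 in Gars, -0.67 in Mars2 and -0.61 in Iars. The next were -0.56 in Tars, -0.55 in Lars, -0.52 in Nars, -0.51 in Rars and -0.43 in Eprs. The rest were -0.42 in Yars, -0.41 in Aars, -0.35 in Wars, -0.32 in Vars, -0.29 in Qars and -0.27 in Farsb. Vars, Wars and Qars were not called in Th9 against Th0. T cell markers also differed between these groups, and their part was not tested.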

How the results depend on the processing

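Cytosolic genes called higher in Th9 numbered 12, and 15 with the 3 abundant RNA genes (mt-Rnr1, mt-Rnr2 and Gm26917) left out of the total, 11 when each library was scaled to an equal total and 9 to 13 with each library left out, and 0 were called lower under any alternative. Of mitochondrial genes in Th9, Aars2 made 1 called lower, but 0 with no filter, the same total per library or a total that leaves out those RNA genes, 3 with array weights (where 3 were higher) and 0 to 1 with libraries left out (1 to 2 higher). Cytosolic genes in Th17 against Th0 went from 0 to 2 higher and 1 lower with those 3 genes left out of the total, to 4 and 6 with array weights, and to 0 to 3 higher and 0 to 7 lower with libraries left out, and mitochondrial ones to 3 lower with array weights and 0 to 2 with libraries left out. In Th17 against Th9, cytosolic genes called lower were 12 to 16 with libraries left out, and Farsb, Qars and Wars were those that lost calls. Mitochondrial genes were 2 lower with those 3 genes left out of the total, 3 higher and 2 lower with array weights, and 0 to 1 higher and 1 to 2 lower with libraries left out. All genes called were 3653 in Th9 (6628 with array weights, 1853 to 5336 with libraries left out), 226 in Th17 (139 with the same total, 447 with the 3 genes left out, 3361 with array weights, 16 to 2352 with libraries left out) and 2993 in Th17 against Th9 (4981 with array weights, 1987 to 4539 with libraries left out). The cause was not tested, though leaving out a library leaves fewer samples. The same total per library moved the median of all genes in Th9 from -0.01 to 0.10 and the split from 1937 higher and 1716 lower to 2252 and 794. Correlations with the Th0 library of the same number were 0.11, -0.01 and 0.15 in Th9 and -0.05, -0.08 and 0.04 in Th17. With Th0 libraries of another number they were -0.13 to 0.04 in Th9 and -0.05 to 0.09 in Th17. These values do not settle if replicate numbers pair the samples. With replicate numbers as a block, 4076, 262 and 2865 genes were called in the 3 comparisons. Among members Farsb lost (adjusted p = 0.059) and Lars2 gained (0.045, 1 mitochondrial gene higher) a call in Th17 against Th9 in limma. No called member changed sign. Members not called changed sign 19, 31 and 10 times over the alternatives of Th9, Th17 and Th17 against Th9, from log2 differences of at most 0.12. Depth of single libraries, about 12718971 reads at the least, limits the least abundant members such as Nars2.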

Other observations

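Interferon-gamma response genes were mixed in Th9 against Th0. Of 12 tested, 5 rose and 1 fell in limma, where 13.4% and 11.9% of all genes did. Their median log2 change was 0.37, and Nlrc5, an activator of MHC class I genes, had 1.35 and Tap1, a peptide transporter, 1.04. Of 16 T cell markers tested, 14 were also higher in these Th9 libraries (median log2 change 4.03), and their part was not tested. In Th17 against Th0, 0 of 11 were called in limma, with 1 higher and 0 lower at an unadjusted p under 0.05. Wars, which interferon-gamma is known to induce, was not called in either comparison (log2 0.25 in Th9 and -0.09 in Th17).

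In Th9 against Th0, of 4 tested myeloid markers Cd14 was higher (log2 0.86) and Lyz2 lower (-3.36, from a mean of 19.7 to 1). The single B cell marker (Cd79a) and the single red cell marker (Alas2) that were tested were not called, and 0 of 3 NK markers reached the minimum mean. Of 4 tested LLC1 markers Krt8 was lower in Th9 (-0.97).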
